A study of Homo sapiens with 12 samples.

Results

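The Sprouty and SPRED genes SPRY1, SPRY2, SPRY4, SPRED1, SPRED2 and SPRED3 were taken by symbol from a table of 19901 genes, and all 6 were found. All 6 also passed the filter on low counts (10 counts or more in 6 or more libraries), which left 13093 genes for testing. Symbols were matched through a table of gene identifiers. No cut-off on measured values was used to pick the genes, but earlier results of these data were known.

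RNA-Seq libraries came from HCT116 cells, derived from a human colorectal carcinoma, whose KAP1 protein (gene TRIM28) was fused to a degradation tag (genotype KAP1-dTAG). Cells of a single clone, D5, spent 48 h in medium lacking serum, with dTAG (the small molecule that triggers loss of the tagged protein) or its solvent DMSO present for 8 h, and then received serum for 30 min or none. This gave 4 groups of 3 libraries, described by the study's methods as biological replicates: DMSO-S0 and dTAG-S0 without serum, and DMSO-S30 and dTAG-S30 with serum. All groups share the tagged allele and the starvation, no untagged line was included, and results from 1 clone do not cover variation between clones.

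Sprouty and SPRED proteins are inhibitors of the RAS-ERK cascade, the chain of kinases that carries signals from growth factor receptors to the nucleus. Growth factors bind receptor tyrosine kinases, adaptors bring exchange factors to RAS, and active RAS passes the signal through RAF, MEK and ERK. Several Sprouty genes are themselves transcribed in response to ERK activity and so act as feedback inhibitors. SPRED proteins carry a Sprouty-related domain and bring neurofibromin, the RAS GTPase-activating protein encoded by NF1, to the membrane. Serum is a strong growth factor stimulus. The comparisons below ask how the transcripts of these inhibitors stood before and after 30 min of serum, with KAP1 present or depleted.

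Windows of 300 bases around annotated transcription starts were available for all 6 genes (11 windows, RefSeq, GRCh38.p14, from 250 bases before to 50 bases after each start). The windows of SPRY4, SPRY2, SPRED2 and SPRED1 are shown because these 4 genes differed with serum in both DMSO- and dTAG-treated cells, the first 3 upwards and SPRED1 downwards. For each gene, the window whose start lies nearest to the start of the counted gene was taken. Measured from the counted start, these starts lie at 2208 bases for SPRY4 (its only window), 38 for SPRED2, 510 for SPRED1 and -175 (upstream) for SPRY2. Each window is written from 5′ to 3′ on the strand of the gene. Capitals mark matches, on either strand, to the ETS core CCGGAA, the AP-1 site TGANTCA, the cAMP response element core TGACG or the CArG box bound by SRF.
SPRY4, chr5:142324198-142324497, minus strand: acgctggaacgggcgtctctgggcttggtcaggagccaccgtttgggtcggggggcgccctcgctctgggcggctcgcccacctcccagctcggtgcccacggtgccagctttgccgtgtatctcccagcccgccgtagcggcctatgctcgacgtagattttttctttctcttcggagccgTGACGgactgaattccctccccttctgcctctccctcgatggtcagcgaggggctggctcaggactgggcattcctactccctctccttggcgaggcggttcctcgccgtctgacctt
SPRY2, chr13:80341077-80341376, minus strand: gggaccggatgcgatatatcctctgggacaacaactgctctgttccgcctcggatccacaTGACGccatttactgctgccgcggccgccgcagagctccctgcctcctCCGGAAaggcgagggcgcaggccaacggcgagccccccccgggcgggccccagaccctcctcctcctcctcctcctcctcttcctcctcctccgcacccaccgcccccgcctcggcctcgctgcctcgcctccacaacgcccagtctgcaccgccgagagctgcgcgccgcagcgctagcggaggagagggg
SPRED2, chr2:65432550-65432849, minus strand: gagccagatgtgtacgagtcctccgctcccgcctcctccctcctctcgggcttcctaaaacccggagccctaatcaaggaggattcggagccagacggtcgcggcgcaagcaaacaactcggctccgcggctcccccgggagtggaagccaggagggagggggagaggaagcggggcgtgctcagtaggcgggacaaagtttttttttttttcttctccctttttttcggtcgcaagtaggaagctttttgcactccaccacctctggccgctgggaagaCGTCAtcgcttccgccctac
SPRED1, chr15:38252586-38252885, plus strand: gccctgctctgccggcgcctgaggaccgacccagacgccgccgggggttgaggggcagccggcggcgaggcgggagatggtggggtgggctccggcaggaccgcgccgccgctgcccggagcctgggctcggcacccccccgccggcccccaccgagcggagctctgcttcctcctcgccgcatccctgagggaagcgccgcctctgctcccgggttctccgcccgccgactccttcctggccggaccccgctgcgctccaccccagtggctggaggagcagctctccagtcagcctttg

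The SPRY4 window held 1 TGACG, beginning 68 bases before the start. In the SPRY2 window a TGACG began 190 bases and a CCGGAA 142 bases before the start. The SPRED2 window held TGACG once on the opposite strand, 30 bases after the start, and the SPRED1 window held none of the 4 motifs. Among the 7 windows not printed, a further SPRY1 window held CCGGAA, a further SPRED2 window held TGANTCA at 2 places, and a SPRED3 window held it once. Of 35116 promoter windows of the same length, 24.6% held TGACG, 17.2% held CCGGAA, 7.71% held TGANTCA and 1.29% held a CArG box, so the first pair of motifs is common in such windows. A match describes letters only, and binding was not measured here.

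The counts were made over the whole span of each gene, introns included. SPRY1 (ENSG00000164056.10, chr4:123396795-123403760, plus strand), SPRY2 (ENSG00000136158.11, chr13:80335976-80340951, minus strand) and SPRY4 (ENSG00000187678.9, chr5:142310427-142326455, minus strand) are compact in hg38, with spans of 6.97, 4.98 and 16.0 kb. Exons of GENCODE v44 cover 56.9%, 61.1% and 40.9% of these spans. SPRED3 (ENSG00000188766.12, chr19:38388421-38399587, plus strand) spans 11.2 kb with 52.5% exon. SPRED1 (ENSG00000166068.12, chr15:38252326-38357249, plus strand) and SPRED2 (ENSG00000198369.9, chr2:65310851-65432637, minus strand) span 105 and 122 kb, of which exons cover 7.39% and 4.52%. The counts of the last pair can therefore hold a larger share of intronic reads. SPRY4 overlaps the antisense gene SPRY4-AS1 over 7.78% of its span, and SPRED2 overlaps a long noncoding RNA gene on its own strand over 5.74%. The strand setting of the counting is not given in the sources used here, so reads of SPRY4-AS1 cannot be told apart from those of SPRY4. For SPRED2 the overlapping gene is on the same strand, so no strand setting would separate its reads.

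**Figure D1:**
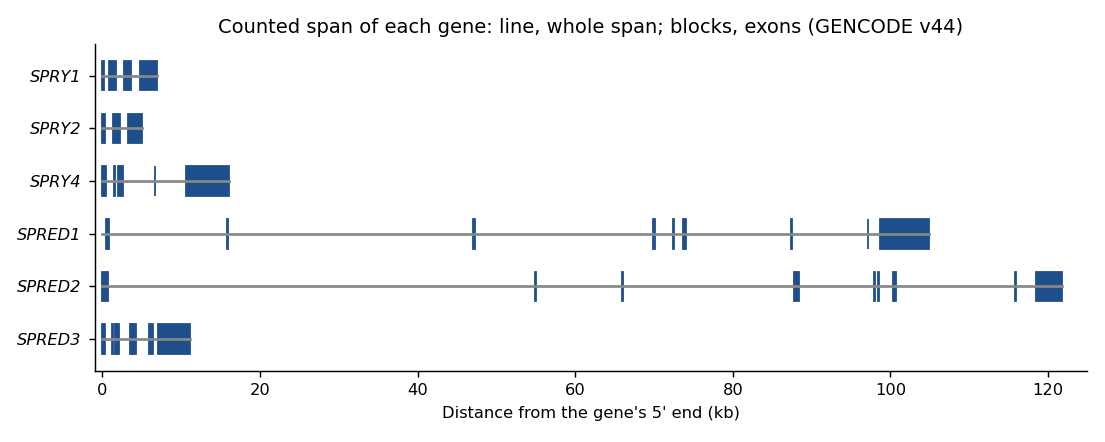
Counted span of each gene on a common scale, in kb from the gene's 5′ end; lines mark the whole span and blocks the GENCODE v44 exons. SPRED1 and SPRED2 extend over 105 and 122 kb, mostly intron, and the other 4 genes over at most 16.0 kb.

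Levels are given as normalised CPM, the usual scaling of a count to the size of its library, after upper-quartile correction. Total counts per library ranged from 20537682 to 26278707, of which 7.97% to 9.37% fell on ERCC spike-ins. TRIM28, the targeted gene, stood at 96.9 ± 4.74 CPM (SD, n = 3) in DMSO-S0, 92.6 ± 6.27 in dTAG-S0, 115 ± 5.71 in DMSO-S30 and 112 ± 7.87 in dTAG-S30. dTAG acts on the protein, so these transcript levels do not measure its loss. The colorectal epithelial markers EPCAM, KRT8, KRT18, KRT19, CDH1 and CLDN4 were all expressed, at 72.6 CPM or more in every library, while VIL1 and LGALS4 were at or below 0.661 CPM. Of 8 markers of leukocytes, endothelium and fibroblasts, 7 were at or below 2.52 CPM in every library, including the fibroblast genes COL1A2 and DCN, which did not exceed 0.0833 CPM. The exception, COL1A1, lay at 11.8 to 15.7 CPM without serum and 65.6 to 85.5 CPM with it. The summed epithelial markers were likewise higher with serum, at 1218 to 1392 CPM without it and 1404 to 1672 CPM with it. The part of these markers in the values below was not tested.

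SPRY4 was the most abundant of the 6 per length of gene. In DMSO-S0 it stood at 10.8 CPM per kb of counted span, against 1.16 for SPRY2, 1.04 for SPRED1, 1.04 for SPRED2, 0.672 for SPRED3 and 0.599 for SPRY1. SPRED1 and SPRED2 overlapped in their libraries on this scale, as did SPRED3 and SPRY1, and the other neighbours in the order did not. With serum in DMSO-treated cells the order per kb was SPRY4 at 14.0, SPRY2 at 1.82, SPRED2 at 1.24, SPRED1 at 0.903, SPRY1 at 0.728 and SPRED3 at 0.577, with no overlap between neighbours. On this scale SPRED2 thus separated from SPRED1, and SPRY1 from SPRED3, pairs that overlapped in DMSO-S0. By CPM, not divided by length, the order of these pairs did not change. SPRED2 lay above SPRED1 in DMSO-S0 (127 against 109) and in DMSO-S30 (151 against 94.8). SPRED3 lay above SPRY1 in both (7.51 against 4.17, and 6.45 against 5.07). In dTAG-treated cells the same genes led and closed the order, from 10.1 for SPRY4 to 0.612 for SPRY1 without serum and from 14.7 for SPRY4 to 0.480 for SPRED3 with it. Without serum SPRY2, SPRED1 and SPRED2 overlapped with their neighbours there, as did SPRED3 and SPRY1, and with serum SPRED1 and SPRY1 did. These lengths include introns, so the levels are per kb of gene and not per kb of mature transcript.

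Serum raised 3 members and lowered 1 in DMSO-treated cells, and raised 4 and lowered 2 in dTAG-treated cells, by the edgeR quasi-likelihood test at an adjusted p under 0.05. SPRY2, SPRY4 and SPRED2 rose and SPRED1 fell in both, while SPRY1 rose and SPRED3 fell in dTAG-treated cells. All genes together gave 27.3% called in DMSO-treated cells (9.39% higher, 17.9% lower) and 25.6% in dTAG-treated cells (9.31% higher, 16.2% lower). The share of higher calls among all called genes depended on the scaling. It was 34.4% in DMSO-treated cells as fitted, 61.3% with TMM scaling, 66.5% with ERCC library sizes and 58.0% with DESeq2, and in dTAG-treated cells 36.4%, 61.8%, 62.5% and 59.0%. The median log2 fold change of the 6 members was 0.26 in DMSO-treated and 0.38 in dTAG-treated cells, against -0.07 and -0.06 over all genes tested. In both serum comparisons each of the 6 genes kept its sign in 9 other fits (other scalings, models and filters) and in 12 fits that left out 1 library. The lower calls of SPRED1 and SPRED3, and the higher call of SPRY1 in dTAG-treated cells, did not hold in all of these fits. In bulk RNA a change in the share of cells that express a gene and a change in RNA per cell cannot be told apart.

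**Figure D2:**
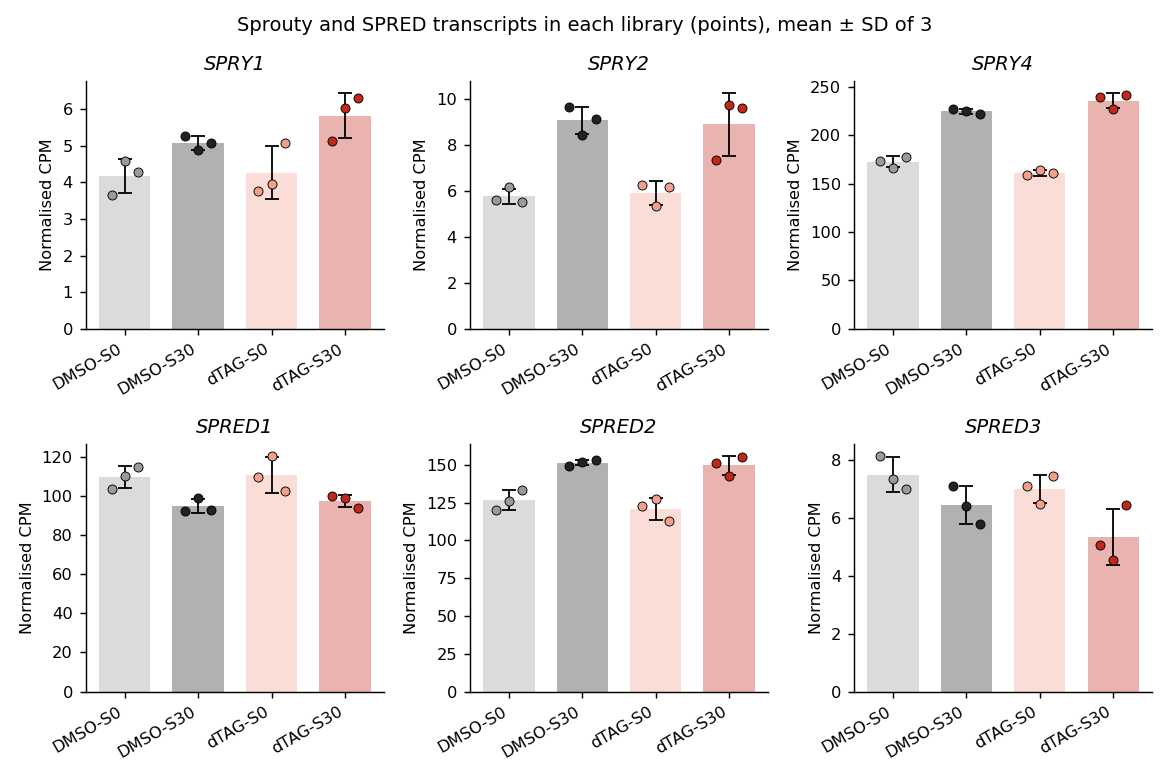
Normalised CPM of the 6 genes in each of the 12 libraries (points) with the mean of each group (bars) and its SD over 3 libraries (error bars); all axes start at 0. SPRY2, SPRY4 and SPRED2 are higher and SPRED1 lower in every library with serum than in any without it under the same treatment.

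SPRY4, a Sprouty protein that restrains RAS activation downstream of receptor tyrosine kinases, had 3279 to 5330 counts per library and so the best-determined level of the Sprouty genes. In DMSO-treated cells its CPM was 174, 166 and 177 without serum and 228, 225 and 222 with serum. In dTAG-treated cells it was 158, 165 and 161 without serum and 239, 227 and 242 with serum. The groups with and without serum did not overlap under either treatment, and the gap between them was several times the spread within a group. The fitted fold was 1.30 in DMSO-treated cells (log2 0.38, SE 0.0555, adjusted p = 6.07e-06) and 1.46 in dTAG-treated cells (log2 0.55, SE 0.0533, adjusted p = 5.24e-09). Both calls held in all 9 other fits and in all 12 fits that left out 1 library, with log2 fold changes from 0.35 to 0.46 and from 0.53 to 0.61. Because SPRY4-AS1 overlaps SPRY4, its share of these counts is not known.

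SPRY2, the Sprouty protein known to bind the ubiquitin ligase CBL and the adaptor GRB2, was present at 106 to 218 counts per library. It measured 5.62, 6.15 and 5.49 CPM without serum and 9.62, 8.41 and 9.13 CPM with serum in DMSO-treated cells. After dTAG it measured 6.25, 5.33 and 6.16 CPM without serum and 7.32, 9.75 and 9.61 CPM with serum. Every library with serum lay above every library without it, although dTAG-S30 replicate 1, at 7.32 CPM, sat below the other serum libraries. This was the steepest serum rise of the 6 in DMSO-treated cells, at 1.6-fold (log2 0.67, SE 0.138, adjusted p = 0.000550), with a 95% interval of 1.31 to 1.94. In dTAG-treated cells the fold was 1.49 (log2 0.58, SE 0.131, adjusted p = 0.00168, 95% interval 1.24 to 1.80). These calls also held in all 9 other fits and with each library left out.

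SPRY1, a Sprouty protein with the same conserved domain, was the least counted member, at 69 to 139 counts per library. Its CPM in DMSO-treated cells was 3.66, 4.59 and 4.27 without serum and 5.25, 4.89 and 5.07 with serum. In dTAG-treated cells it was 3.76, 3.94 and 5.08 without serum and 5.12, 6.04 and 6.30 with serum. The groups did not overlap under either treatment, but the lowest dTAG-S30 library exceeded the highest dTAG-S0 library by a narrow margin, 5.12 against 5.08 CPM. In dTAG-treated cells SPRY1 rose 1.36-fold (log2 0.44, SE 0.152, adjusted p = 0.0331). In DMSO-treated cells the fold was 1.22 with a 95% interval of 0.965 to 1.54 (adjusted p = 0.203) and did not pass the test. The call in dTAG-treated cells held in all 9 other fits. It was lost without dTAG-S0 replicate 1 (log2 0.37, adjusted p = 0.11), dTAG-S0 replicate 2 (log2 0.38, adjusted p = 0.119), dTAG-S30 replicate 2 (log2 0.42, adjusted p = 0.0814) or dTAG-S30 replicate 3 (log2 0.41, adjusted p = 0.11).

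SPRED2, which like SPRED1 links RAS to neurofibromin, was counted 2269 to 3450 times per library. Without serum it stood at 120.3, 126 and 134 CPM in DMSO-treated cells and at 123, 127 and 113 CPM in dTAG-treated cells. With serum the values were 149, 152 and 153 CPM and 151, 143 and 155 CPM. No library without serum reached any library with serum. The rise was 1.18-fold in DMSO-treated cells (log2 0.24, SE 0.0596, adjusted p = 0.00334) and 1.25-fold in dTAG-treated cells (log2 0.32, SE 0.0575, adjusted p = 0.000153). It passed the test in all 9 other fits and in all 12 fits with a library left out, where the log2 fold change was 0.21 to 0.32 in DMSO-treated and 0.27 to 0.38 in dTAG-treated cells.

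SPRED1, the SPRED gene whose loss causes Legius syndrome, moved the other way. In DMSO-treated cells its CPM was 103, 110.0 and 115 without serum and 92.3, 99.0 and 93.0 with serum. In dTAG-treated cells it was 109, 120.5 and 102 without serum and 99.7, 98.9 and 93.8 with serum. All libraries with serum lay below those without it under the same treatment, again with small gaps, the lowest value without serum being 103 and 102 CPM and the highest with serum 99.0 and 99.7 CPM. SPRED1 fell by 0.23 on the log2 scale in DMSO-treated cells (SE 0.0636, adjusted p = 0.00904) and by 0.17 in dTAG-treated cells (SE 0.0612, adjusted p = 0.0364). The fall did not pass the test under TMM scaling (log2 -0.15, adjusted p = 0.106, and -0.11, adjusted p = 0.256), ERCC library sizes (-0.14, 0.340, and -0.15, 0.313) or DESeq2 (-0.14, 0.124, and -0.13, 0.155). In DMSO-treated cells it was also lost without DMSO-S0 replicate 3 (log2 -0.19, adjusted p = 0.0779). In dTAG-treated cells it was lost without the count filter (log2 -0.16, adjusted p = 0.0760). It was lost there as well without DMSO-S30 replicate 3 (adjusted p = 0.0530), dTAG-S0 replicate 2 (0.256) or dTAG-S30 replicate 1 (0.0679), 2 (0.0557) or 3 (0.164). The log2 fold change of SPRED1 minus the median of all genes in the same fit was -0.16 in DMSO-treated and -0.11 in dTAG-treated cells.

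SPRED1 and SPRED2 can be set against each other without any scaling, as the ratio of their counts within a library. SPRED2 counts per SPRED1 count were 1.16, 1.14 and 1.17 in DMSO-S0 and 1.62, 1.54 and 1.65 in DMSO-S30. After dTAG the ratios were 1.12, 1.06 and 1.11 without serum and 1.52, 1.44 and 1.66 with serum. The ratio was higher in all 6 libraries with serum than in any of the 6 without it, so unequal change of the 2 genes did not rest on the scaling. SPRY4 counts per SPRY2 count were lower with serum in every library of DMSO-treated cells, by a narrow margin, at 27.1 to 32.3 in DMSO-S0 against 23.7 to 26.7 in DMSO-S30. In dTAG-treated cells this ratio overlapped, at 25.3 to 30.9 in dTAG-S0 against 23.3 to 32.7 in dTAG-S30.

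SPRED3, the SPRED family member that lacks a functional KIT-binding domain, was counted 102 to 179 times per library. Its CPM was 8.16, 7.34 and 7.01 in DMSO-S0, 7.12, 6.43 and 5.79 in DMSO-S30, 7.10, 6.49 and 7.45 in dTAG-S0 and 5.07, 4.56 and 6.44 in dTAG-S30. Groups overlapped in DMSO-treated cells and were separated by 6.49 against 6.44 CPM in dTAG-treated cells. It fell by 0.41 on the log2 scale with serum in dTAG-treated cells (SE 0.139, adjusted p = 0.0304). In DMSO-treated cells the log2 fold change was -0.18 with a 95% interval of -0.47 to 0.12 (adjusted p = 0.379). The call in dTAG-treated cells was lost with TMM scaling (adjusted p = 0.0806), ERCC library sizes (0.123), 2 factors of unwanted variation (0.0869), DESeq2 (0.0947) and a fit to the compared groups only (0.0613). Its log2 fold change in these fits lay between -0.35 and -0.34. The call was lost as well without DMSO-S0 replicate 1 (adjusted p = 0.0648), dTAG-S0 replicate 1 (0.0818) or 3 (0.108), or dTAG-S30 replicate 1 (0.0925) or 2 (0.142).

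Across the members, 4 were higher and 1 lower without overlap in DMSO-treated cells, where 13.8% and 30.6% of all genes tested separated in those directions. In dTAG-treated cells 4 were higher and 2 lower without overlap, against 12.6% and 24.9% of all genes. Leaving out dTAG-S30 replicate 2 brought the 6 called members in dTAG-treated cells down to 3. The plot of the serum effect by processing shows that SPRY2, SPRY4 and SPRED2 keep their side of the threshold throughout, and that SPRED1 and SPRED3 do not.

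**Figure D3:**
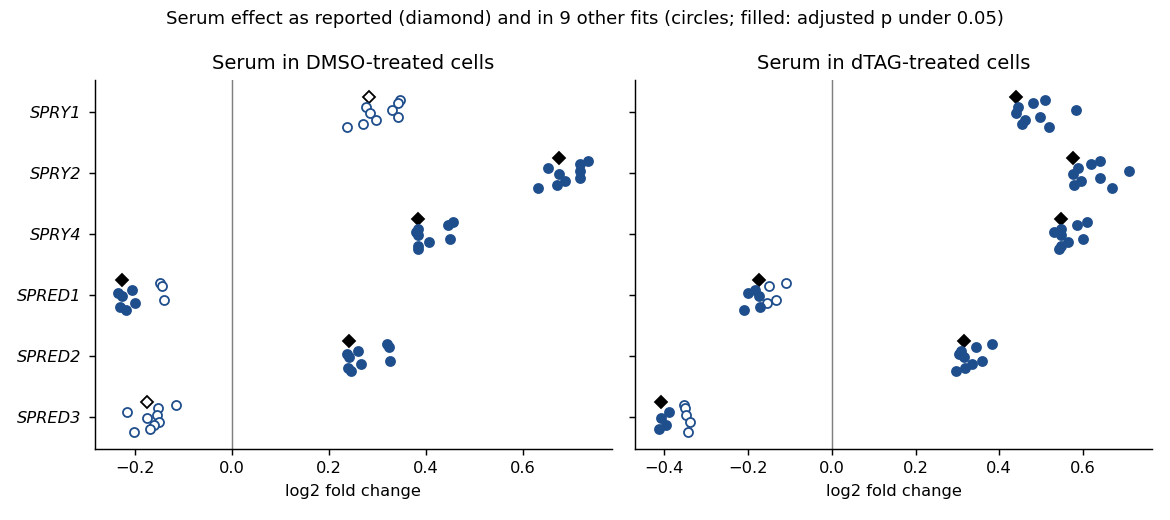
Log2 fold change of serum against none in DMSO-treated (left) and dTAG-treated cells (right) for each gene, as reported (diamond) and in 9 other fits (circles); filled symbols have an adjusted p under 0.05. SPRY2, SPRY4 and SPRED2 are filled throughout in both panels, and SPRED1 loses the call in 3 fits on the left and 4 on the right without a change of sign.

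dTAG, which depleted KAP1 protein strongly but not fully in the study's western blot, gave no call among the 6 genes. None of them passed the test in edgeR without serum, with serum, averaged over both serum levels, or in the interaction of serum and dTAG, where 1.47%, 1.25%, 4.85% and 0.0458% of all genes tested were called. At an unadjusted p under 0.05 the counts were 0, 1, 0 and 1, against 12.2%, 10.5%, 18.1% and 3.35% of all genes. DESeq2 and the likelihood ratio test called 0 members in each comparison as well. A missed threshold does not show equal levels, and the 95% intervals give the changes that the data allow. Over the 6 genes the intervals ran from 0.785 to 1.29-fold without serum, from 0.658 to 1.42-fold with serum and from 0.764 to 1.26-fold averaged over both.

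The well-counted genes set narrower limits. For SPRY4 the fold with dTAG was 0.935 (0.866 to 1.01) without serum and 1.05 (0.970 to 1.13) with serum. All 3 dTAG-S0 libraries, at 158 to 165 CPM, lay below all 3 DMSO-S0 libraries, at 166 to 177 CPM, but the difference did not pass the test (log2 -0.10, adjusted p = 0.494). Such separation was the only one among the 6 genes without serum, where 17.7% of all genes did not overlap, and no member separated with serum, where 15.7% did. For SPRED1 the fold averaged over both serum levels was 1.02 (0.962 to 1.09), and for SPRED2 0.974 (0.920 to 1.03). SPRY2 stood at 1.0-fold (0.876 to 1.14) and SPRY1, the least counted, at 1.08-fold (0.926 to 1.26).

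SPRED3 had the lowest fold of the 6 genes for dTAG with serum and averaged over both serum levels. Without serum SPRY4 had the lowest, 0.935, against 0.951 for SPRED3. With serum SPRED3 measured 5.07, 4.56 and 6.44 CPM after dTAG against 7.12, 6.43 and 5.79 CPM after DMSO, and the groups overlapped. The fold was 0.809 (0.658 to 0.995), with an unadjusted p = 0.0456 and an adjusted p = 0.455. Averaged over both serum levels it was 0.877 (0.764 to 1.01, adjusted p = 0.309).

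The interaction, the serum effect in dTAG-treated cells minus that in DMSO-treated cells, was largest in size for SPRED3 at -0.23 on the log2 scale (95% interval -0.65 to 0.18). SPRY4 had 0.16 (0.0042 to 0.33, unadjusted p = 0.0448, adjusted p = 1.0) and SPRY1 0.16 (-0.31 to 0.63). For SPRY2 it was -0.10 (-0.50 to 0.30), for SPRED2 0.08 (-0.10 to 0.25) and for SPRED1 0.05 (-0.13 to 0.24). That SPRY1 and SPRED3 passed the test for serum in dTAG-treated cells and not in DMSO-treated cells is therefore not shown to be a difference between the treatments. The plot of fitted effects sets these intervals beside those of serum.

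**Figure D4:**
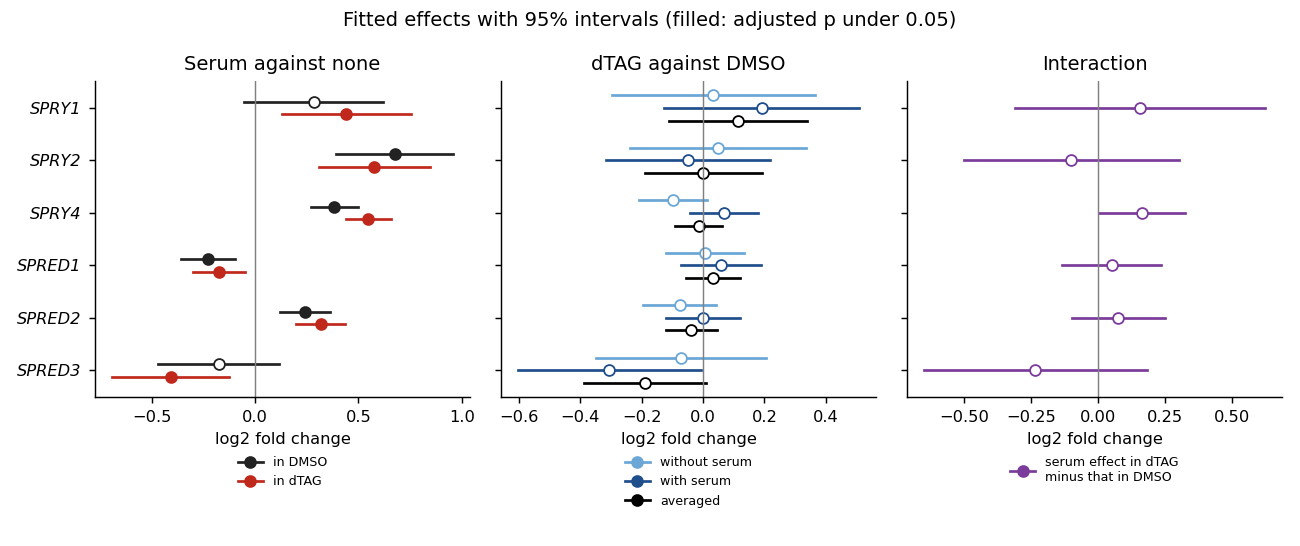
Fitted log2 fold changes (points) with 95% intervals (lines) for serum against none, dTAG against DMSO and their interaction; filled points have an adjusted p under 0.05. The serum panel holds 10 filled points, and the dTAG and interaction panels hold none.

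The rest of the RAS-ERK pathway was read from 8 lists with 75 genes, of which 74 were tested. Of these, 18 were called with serum in DMSO-treated cells (11 higher, 7 lower) and 18 in dTAG-treated cells (13 higher, 5 lower). Over all genes tested, 27.3% were called in DMSO-treated cells (9.39% higher, 17.9% lower). In dTAG-treated cells the share was 25.6% (9.31% higher, 16.2% lower). The lists together lay near all genes only in the total called. They held more higher than lower calls in this fit, the reverse of all genes. The same shares apply to each list below. The lower calls among the list genes depended on the scaling. With TMM scaling 17 were higher and 1 lower in DMSO-treated cells and 18 higher and 1 lower in dTAG-treated cells, with DESeq2 18 and 1 in both, and with ERCC library sizes 11 and 0, and 14 and 0.

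Receptors, which bind the growth factors, gave 0 calls among 12 genes in the quasi-likelihood test of edgeR, with 1 and 3 at an unadjusted p under 0.05 in DMSO- and dTAG-treated cells. TMM scaling and DESeq2 each called 2 and 3 of them higher, and in dTAG-treated cells the likelihood ratio test called 2 and ERCC library sizes 1. Over all genes TMM scaling called 2808 (61.3% of them higher) and 2531 (61.8%), and DESeq2 2906 (58.0%) and 2830 (59.0%). In dTAG-treated cells the likelihood ratio test called 3641 (35.2% higher) and ERCC library sizes 1646 (62.5%). The kinases and scaffolds that carry the signal onward gave 0 calls among 12 as well, with 2 and 0 at an unadjusted p under 0.05, and DESeq2 called 1 higher in DMSO-treated cells. The share of all genes at an unadjusted p under 0.05 is not given here for serum, so those counts are description only. The median log2 fold changes of both lists lay between -0.04 and 0.04, against -0.07 and -0.06 over all genes.

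Of 13 genes of adaptors and exchange factors, 1 rose and 5 fell in DMSO-treated cells, and 1 rose and 2 fell in dTAG-treated cells. With TMM scaling, ERCC library sizes or DESeq2, however, 1 rose and 0 fell. SHC1, an adaptor that links receptors to GRB2, was the gene that rose, by 0.37 (adjusted p = 7.09e-05) and by 0.32 (adjusted p = 0.000217) on the log2 scale, and it did so in all fits. Among the falls were the docking protein GAB1 in DMSO-treated cells (log2 -0.31, adjusted p = 0.0144), the ubiquitin ligase CBLB in both (log2 -0.22 and -0.23, adjusted p = 0.0349 and 0.0228) and the RAS exchange factor SOS1 in dTAG-treated cells (log2 -0.17, adjusted p = 0.0174). Their adjusted p under the 3 other scalings lay between 0.0686 and 0.543. GAB1 also lost its call without DMSO-S0 replicate 3 (adjusted p = 0.136) or DMSO-S30 replicate 2 (0.0614). CBLB lost it in DMSO-treated cells with no factor of unwanted variation (0.0749) or no count filter (0.0577), and without DMSO-S0 replicate 2 (0.0555), DMSO-S30 replicate 3 (0.158) or dTAG-S30 replicate 3 (0.0689). SOS1 lost it with no count filter (0.0841). In dTAG-treated cells CBLB and SOS1 lost it without dTAG-S0 replicate 2 (0.124 and 0.0534), dTAG-S30 replicate 2 (0.0822 and 0.0615) or dTAG-S30 replicate 3 (0.189 and 0.0794).

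Among 6 genes of RAS proteins, 1 rose with serum under each treatment. RRAS rose by 0.36 on the log2 scale in DMSO-treated cells (adjusted p = 0.0435), near the threshold, and its adjusted p lay between 0.0510 and 0.122 when DMSO-S0 replicate 2 or 3, DMSO-S30 replicate 1 or 3, dTAG-S0 replicate 3, or dTAG-S30 replicate 2 or 3 was left out. MRAS rose by 0.30 in dTAG-treated cells (adjusted p = 0.0173), a call lost without dTAG-S0 replicate 2 (0.0507) or 3 (0.0566) or dTAG-S30 replicate 3 (0.0996). Both were past the threshold with TMM scaling and DESeq2 and missed it with ERCC library sizes (0.0506 and 0.0709). RRAS also missed it with no factor of unwanted variation (adjusted p = 0.0515).

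Among 8 genes of RAS GTPase-activating proteins, which switch RAS off, 1 fell in DMSO-treated cells, and 2 rose and 2 fell in dTAG-treated cells. NF1, the partner of SPRED proteins, fell by 0.21 in DMSO-treated cells (adjusted p = 0.0209). Like the fall of SPRED1, this one was lost with TMM scaling (log2 -0.13, adjusted p = 0.199), ERCC library sizes (-0.11, 0.519) and DESeq2 (-0.11, 0.272), and without DMSO-S0 replicate 3 (adjusted p = 0.0804) or dTAG-S30 replicate 3 (0.0526). In dTAG-treated cells DAB2IP rose by 0.27 (adjusted p = 0.000949), a call that held in all fits. RASAL1 fell by 0.25 there (adjusted p = 0.0184), with an adjusted p of 0.0650 to 0.185 under the 3 other scalings and of 0.0552 to 0.106 without dTAG-S0 replicate 2 or dTAG-S30 replicate 2 or 3.

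Of 8 genes used as a transcriptional readout of ERK activity, 5 rose and 0 fell with serum under each treatment, and their median log2 fold change was 0.38 in DMSO-treated and 0.31 in dTAG-treated cells. DUSP4, a nuclear phosphatase of ERK, led them, at 2.34 and 2.20 on the log2 scale (adjusted p = 1.94e-19 and 2.20e-19). EPHA2, an ephrin receptor, followed with 1.66 and 1.70 (adjusted p = 1.42e-16 and 3.70e-17). DUSP6, the cytoplasmic ERK phosphatase, rose by 0.45 in DMSO-treated cells (adjusted p = 1.17e-06), and PHLDA1 rose by 0.34 in dTAG-treated cells (adjusted p = 0.000126). The serum rises of SPRY4, at 0.38 and 0.55, were nearer to those of DUSP6 and PHLDA1 than to those of DUSP4 and EPHA2, a comparison that was not tested. The calls of these 4 list genes held in all fits, and with TMM scaling or DESeq2 6 of the 8 genes rose.

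Other inhibitors of the pathway gave 2 rises among 8 genes under each treatment. DUSP5, a nuclear ERK phosphatase, rose by 4.23 and 3.78 on the log2 scale (adjusted p = 1.69e-26 and 6.31e-26). ERRFI1, an inhibitor of EGFR, rose by 1.55 and 1.37 (adjusted p = 3.02e-17 and 1.75e-16). All these rises passed the test in all 9 other fits and with each library left out.

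With dTAG, 2 of the 74 list genes were called without serum, 0 with serum, 2 averaged over both serum levels and 0 in the interaction, with 7, 7, 10 and 4 at an unadjusted p under 0.05. Over all genes tested the shares called were 1.47%, 1.25%, 4.85% and 0.0458%. At an unadjusted p under 0.05 they were 12.2%, 10.5%, 18.1% and 3.35%. DESeq2 called 2 of the list genes without serum, 2 with serum, 4 averaged and 1 in the interaction, and the likelihood ratio test 2, 0, 3 and 1. Over all genes DESeq2 called 257, 298, 768 and 22 in that order, and the likelihood ratio test 310, 278, 911 and 15. DUSP5 was 0.30 higher without serum (adjusted p = 0.00790), a call lost without dTAG-S0 replicate 3 (0.133). ERRFI1 was 0.26 higher without serum (adjusted p = 0.0203) and 0.17 higher averaged over both serum levels (adjusted p = 0.0147). With ERCC library sizes its adjusted p was 0.0766 and 0.0623. Without serum the call of ERRFI1 was lost without DMSO-S0 replicate 2 (0.0858) or 3 (0.0907) or dTAG-S0 replicate 1 (0.0709) or 3 (0.201), and averaged it was lost without DMSO-S30 replicate 2 (0.0641) or dTAG-S0 replicate 3 (0.0619). The collagen receptor DDR1 was 0.20 higher averaged over both serum levels (adjusted p = 0.00920), a call narrowly lost without dTAG-S0 replicate 3 (0.05003).

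Among 9 tested genes of proteins that bind or modify Sprouty proteins, 2 rose and 2 fell with serum in DMSO-treated cells. In dTAG-treated cells 2 rose and 1 fell. SIAH2, a ubiquitin ligase that targets Sprouty proteins for degradation, rose by 1.70 and 1.41 on the log2 scale (adjusted p = 1.04e-17 and 2.76e-16). CAV1, the caveolar coat protein, rose by 0.39 and 0.38 (adjusted p = 4.37e-05 and 4.51e-05). MKNK1, a kinase that phosphorylates SPRY2, fell by 0.26 and 0.30 (adjusted p = 0.00595 and 0.00146), and missed the threshold only with ERCC library sizes (0.153 and 0.0719). The rises of SIAH2 and CAV1 held in all fits.

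**Figure D5:**
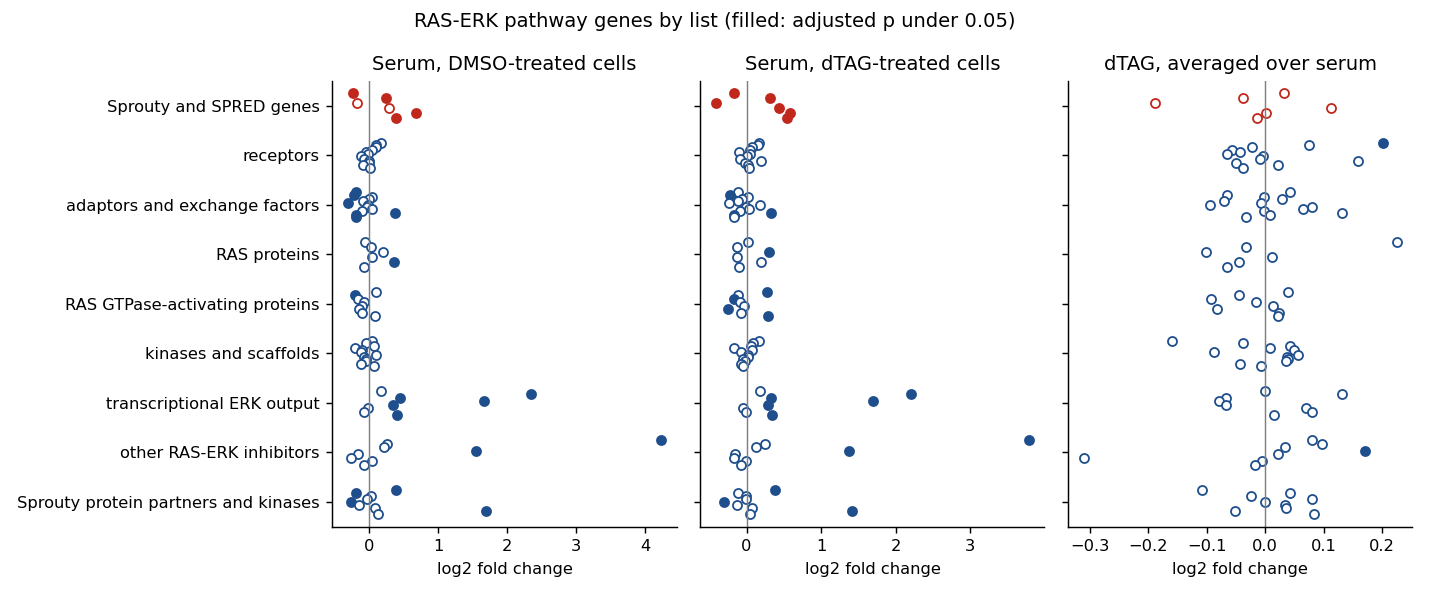
Log2 fold change of each tested gene of the 8 RAS-ERK lists (blue) and of the 6 Sprouty and SPRED genes (red) for serum in DMSO-treated cells, serum in dTAG-treated cells and dTAG averaged over serum; filled points have an adjusted p under 0.05, and the 3 horizontal axes differ in range. DUSP5 lies farthest right in both serum panels, at 4.23 and 3.78, and the receptors and the kinases and scaffolds hold no filled point there.

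The genes whose log2 CPM followed each member most closely over the 12 libraries are given as a description. The libraries share the serum groups, so a high Pearson r follows for genes that differ with serum in the same direction. For SPRY2 the closest genes were ZFP36L2 (r = 0.976), MYC (r = 0.974) and the mitochondrial gene MT-ND2 (r = 0.973). SPRY4 had CAPZB (r = 0.985), JAG1 (r = 0.985) and MACF1 (r = 0.982), and SPRED2 had PTPRE (r = 0.990), JARID2 (r = 0.984) and CMIP (r = 0.978). SPRED1, which fell with serum, was followed by GALK2 (r = 0.958), RBM20 (r = 0.956) and CEP135 (r = 0.955). The genes with few counts had looser neighbours, among them TADA3 (r = 0.909) and PITRM1 (r = 0.893) for SPRY1 and ZNF74 (r = 0.902), DNALI1 (r = 0.898) and PDK2 (r = 0.890) for SPRED3.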

How the data were processed

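RNA-Seq was done on 12 libraries in 4 groups of 3. The deposited table holds raw, unnormalized read counts for protein-coding genes and for ERCC spike-in transcripts. Per the study's methods and the submitters' processing notes, the authors checked reads with FastQC 0.11.8, trimmed them with Trim Galore 0.6.4, mapped them to hg38 with STAR and counted them over whole protein-coding genes, introns included, with featureCounts of Subread 1.6.3. Strand and multi-mapping settings are not given in the sources used here, and reads counted without molecular identifiers are not independent molecules. Groups and columns were assigned from the sample titles, and 0 per-sample columns were left unused. Start positions in the table count from 0 and are given here from 1.

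Genes reaching 10 counts in 6 or more libraries were tested (13093 of 19901). Counts were scaled by the upper quartile, and 69 ERCC transcripts gave 1 factor of unwanted variation with the method of RUVg, computed here by singular value decomposition, since the number of factors is not given in the sources used here. The quasi-likelihood F-test of edgeR 4.0.16 (R 4.3.3) was fitted to all 12 libraries at once, and p-values were adjusted by Benjamini-Hochberg over all 13093 genes with a threshold of 0.05. Log2 CPM was computed with a prior count of 2, fold changes used the default of edgeR, and intervals are at 95%. Normalised CPM divides counts by the library size times the upper-quartile factor. The code was tested on simulated counts with known changes. Alternatives were TMM scaling, ERCC totals as library sizes, 0 or 2 factors, the likelihood ratio test, DESeq2 1.42.0, no count filter, a replicate block, fits to the compared groups only and fits without each library. Replicates differed by more than sampling noise (chi-square per degree of freedom 3.02 to 9.80 over 12 pairs), so none was taken as a repeat of another.

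The 6 genes and the pathway and marker lists were chosen with earlier results of these data known, so no list is given as independent support. Named besides the 6 genes are TRIM28, up to 3 called genes with the largest change per list and comparison, and the 3 genes with the highest Pearson r to each member among tested genes with a mean of at least 1 CPM. Some genes that this rule selects are not reported here. Exons and overlaps come from GENCODE v44, which may differ from the annotation used for counting, and promoter windows from RefSeq (GRCh38.p14).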

Additional observations from a re-analysis of the deposited data

How the results depend on the processing

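The serum calls of SPRY2, SPRY4 and SPRED2 held under the 9 other fits and the 12 fits without 1 library, and no fit called any of the 6 genes for dTAG or the interaction. Members called with serum numbered 3 to 4 in DMSO-treated cells and 3 to 6 in dTAG-treated cells over the fits without 1 library. Over all genes, serum calls of 3575 in DMSO-treated and 3346 in dTAG-treated cells became 1766 and 1646 with ERCC library sizes. The calls for dTAG without serum (193), with serum (164), averaged (635) and in the interaction (6) became 76, 66, 258 and 3 with ERCC library sizes. The likelihood ratio test gave 310, 278 and 15 calls for dTAG without serum, with serum and in the interaction, and the fit without a count filter gave 310, 286 and 24. DESeq2 gave 298 with serum and 22 in the interaction. Leaving out 1 library moved the calls to between 2134 and 4009 (serum in dTAG-treated cells), 69 and 306 (dTAG without serum), 98 and 267 (with serum) and 376 and 914 (averaged). The lowest of these came without dTAG-S30 replicate 3, dTAG-S0 replicate 3, DMSO-S30 replicates 2 and 3 (98 each) and DMSO-S30 replicate 2, in that order. The share of higher calls with ERCC library sizes was 80.3% against 65.3% for dTAG without serum and 65.5% against 49.6% averaged, and 53.9% without a count filter for dTAG without serum. The causes were not tested.

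Only effects that did not pass the test changed sign. With 2 factors, the log2 fold change for dTAG without serum was -0.0556 for SPRY1 and -0.0388 for SPRY2, and that averaged was -0.0426 for SPRY2. In the fit to the compared groups only, dTAG without serum gave -0.00819 for SPRY1 and -0.000156 for SPRED1. Without a count filter SPRY2 averaged was -0.000382. With ERCC library sizes SPRY4 averaged was 0.00310 and the SPRED1 interaction was -0.00577. Leaving out 1 library spread dTAG without serum over -0.130 to 0.126 for SPRY1, -0.0297 to 0.124 for SPRY2 and -0.0626 to 0.0604 for SPRED1. It spread dTAG with serum over -0.135 to 0.143 for SPRY2, -0.0341 to 0.0285 for SPRED2 and -0.101 to 0.0319 for TRIM28. Averaged values ran from -0.0528 to 0.0764 for SPRY2 and from -0.000986 to 0.0579 for SPRED1, and interactions from -0.192 to 0.133 for SPRY2, from -0.00711 to 0.123 for SPRED1 and from -0.0493 to 0.102 for TRIM28.

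Replicate numbers are shared between groups in the titles, but same-numbered libraries did not deviate together (r from -0.153 to 0.139 over 18 pairs, against -0.199 to 0.256 over 36 other pairs). With the replicate block the calls were 3665, 3451, 205, 181, 688 and 7, no call of the 6 genes changed, the serum call of RRAS in DMSO-treated cells had an adjusted p of 0.0525, and dTAG with serum for SPRED2 was 0.00167 on the log2 scale.

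SPRY1, SPRY2 and SPRED3 rest on 69 to 218 counts per library, and their standard errors for serum, 0.131 to 0.163, compare with 0.0533 to 0.0636 for the 3 genes with more counts.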
